A study of Mus musculus with 15 samples.

Results

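The outer CA3 layer of newborn mice lacking doublecortin (Dcx KO) was set against the CA3 layer of newborn wild-type (WT) mice by bead array expression profiling. The groups were taken from the sample labels and hold 10 of the 15 arrays of the study. Outer arrays 1 to 5 came from 5 Dcx KO mice and WT arrays 1 to 5 from a further 5 mice, with 1 brain to an array, all at the day of birth and untreated. The inner CA3 layer of the same KO mice makes up the other 5 arrays, which shared the normalization and entered the comparison in none of the main tests. Strain, sex and the construction of the mutant allele are not given in the sources used here.

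Doublecortin binds and stabilizes microtubules in migrating neurons and in growing axons, and its loss in mice disturbs the lamination of the hippocampus more than that of the neocortex. CA3 pyramidal neurons receive the mossy fibres of dentate granule cells and normally lie in a compact band. In the Dcx KO this band is divided, and an outer sample holds the outer of the resulting layers, whereas a WT sample holds the undivided layer. Genotype and the dissected part of CA3 therefore cannot be told apart in this comparison. Tissue pieces hold several cell types, and fewer cells of a type and less RNA per cell cannot be told apart either.

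The arrays differed among themselves in ways that the groups do not account for. Between 10718 and 12072 probes were detected on each of the outer and WT arrays. Outer arrays 1 to 4 belong to a set of 8 arrays, from KO animals 1 to 4, to whose values in another table the authors had added a shift, while outer array 5 and the 5 WT arrays belong to the 7 arrays without it. Array pairs within outer arrays 1 to 4 correlated with r of 0.986 to 0.993 across probes, outer array 5 correlated with these 4 at 0.961 to 0.968 and with the WT arrays at 0.963 to 0.988. Genes of skeletal muscle, a tissue outside the brain, averaged 4.94 to 5.74 on the outer arrays (log2 signal, 9 of 10 markers detected) and 5.24 to 10.91 on the WT arrays, where WT 1, WT 2 and WT 3 had 10.91, 10.10 and 9.17. Bone and cartilage genes averaged 6.22 on outer array 1 and 4.66 to 4.89 on the other outer arrays, against 9.06 on WT 1, 8.39 on WT 3 and 4.71 to 5.16 on the other WT arrays. The Y-linked gene Eif2s3y was at 8.26, 8.70, 8.58, 8.86 and 6.15 on outer arrays 1 to 5, against 6.13 to 7.17 on the WT arrays (1.54, adjusted p = 0.0427). Kdm5d, also Y-linked, was at 6.21, 5.79, 6.03, 6.33 and 5.10 on outer arrays 1 to 5, against 4.33 to 5.13 on the WT arrays (1.13, adjusted p = 0.0238), and Uty differed by 0.01 on the log2 scale (adjusted p = 0.982). For most genes below, the difference is therefore given for all outer arrays and for outer array 5 alone, whose difference from WT lies within the arrays without the shift. No test separates animal 5 from that array set.

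**Figure D1:**
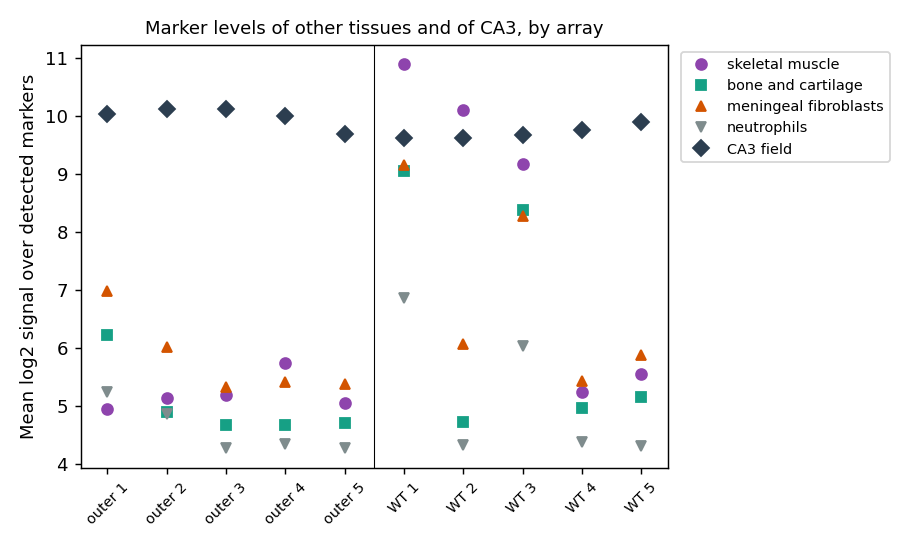
Mean log2 signal over the detected marker genes of 4 other tissues or cell types and of the CA3 field, for outer arrays 1 to 5 on the left and WT arrays 1 to 5 on the right. Skeletal muscle markers stood at 9.17 to 10.91 on WT 1, WT 2 and WT 3 and at 5.74 or less on all outer arrays, while CA3 markers lay between 9.62 and 10.13 throughout.

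CA3 identity genes were present in both groups and none passed the test, where 15.1% of all genes tested did. Of 8 markers of the field 7 were detected, and only Iyd was not. Their mean log2 signal was 10.04, 10.13, 10.13, 10.01 and 9.70 on outer arrays 1 to 5 and 9.62 to 9.91 on the WT arrays. Only outer array 5 thus lay within the WT range. The adhesion gene Nectin3 differed by 0.20 on the log2 scale, although its other probes differed by −0.25 to 0.38, and Cpne4 by 0.01. Socs2, an inhibitor of cytokine signalling, differed by 0.31 (adjusted p = 0.0607) and the transcription factor gene Trps1 by 0.83 (adjusted p = 0.0575), but Trps1 was 0.17 lower than WT on outer array 5. The kainate receptor subunit gene Grik4 differed by 0.23, with −0.12 on outer array 5.

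Dcx itself had the smallest adjusted p of all genes tested. Its brighter probe gave log2 signals of 10.538, 10.629, 10.599, 10.737 and 10.556 on outer arrays 1 to 5, against 11.944, 12.070, 11.764, 11.999 and 12.042 on WT arrays 1 to 5. The groups did not overlap, and outer array 5 stood among the other outer arrays. The difference was −1.35 ± 0.09 (SE, limma adjusted p = 6.72e-05), or 2.55-fold lower in 5 of 5 KO mice, and −1.41 on outer array 5. Another detected Dcx probe differed by −0.99 ± 0.11 (adjusted p = 0.0071), and a further one was below detection on all 10 arrays. Remaining Dcx signal in the KO was well above background, and whether the probes fall inside the deleted stretch was not analysed here. Of the doublecortin-like kinases, which share the microtubule-binding domain, Dclk3 fell by 0.45 ± 0.11 on the log2 scale (adjusted p = 0.0268) and was at 6.82, 6.83, 7.08, 6.66 and 6.73 on outer arrays 1 to 5, below all WT values (7.14 to 7.50). Dclk1 differed by −0.23 (adjusted p = 0.124, and −0.06 on outer array 5) and Dclk2 by 0.12 (adjusted p = 0.377, and 0.26 on outer array 5).

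Across the 8442 genes tested, 703 rose (8.33%) and 575 fell (6.81%) at an adjusted p under 0.05, 1278 in all (15.1%). Of these, 248 higher and 11 lower genes differed by at least 2-fold. The detection filter spanned all 15 arrays, so KO arrays alone could carry a gene through it. WT arrays alone could do so only when all 5 detected the gene. Among 7362 genes detected on all arrays of the outer or the WT group, 705 rose and 720 fell. Higher genes made up 55.0% of the calls, and 93.5% after median scaling, 96.5% with no further normalization and 71.6% with the authors' scores. Other settings gave lower shares, with 50.5% under quantile normalization without background correction and 43.8% with array weights. The share was 46.9% without outer 1 and 48.7% without outer 5. The count rested on single arrays. It was 757 without outer 1, 20 without outer 2, 3 without outer 3, 3 without outer 4 and 2645 without outer 5. Without WT 1, WT 2, WT 3, WT 4 and WT 5 in turn it was 406, 173, 190, 318 and 920. Cckbr, Has3 and Dcx, all lower, were the genes that passed whichever single array was left out. With the array set as a term, 0 genes were higher and Dcx alone was lower by limma (0.0118%). The difference in that fit equals outer array 5 minus the WT mean, so it rests on 1 outer array. Its standard errors can be wider, as for Cckbr (0.31, against 0.18 in the main fit), so few calls there do not show that differences are absent. Taking genes whose 5 outer values all lay beyond all 5 WT values, 222 were above (2.63%) and 550 below (6.52%).

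Higher and lower genes differed in how outer array 5 placed. Over the 703 higher genes the median log2 difference was 0.82 for all outer arrays and 0.08 for outer array 5, and over the 575 lower genes −0.45 and −0.25, while the medians over all genes tested were −0.08 and −0.01. Outer array 5 lay on the called side of all 5 WT arrays for 215 higher genes (2.55% of all genes tested) and 433 lower genes (5.13%), which are 30.6% and 75.3% of those calls. Over all genes tested it lay above the 5 WT arrays for 18.8% and below them for 20.7%. Outer array 5 is part of the fit, so these are descriptions. In the inner layer of the same animals, arrays 1 to 4 exceeded array 5 for 677 of the 703 higher genes (96.3%, against 37.6% of all genes), by a median of 0.76, and the corresponding median among outer arrays was 0.86. For the lower genes, inner arrays 1 to 4 lay below array 5 for 515 of 575 (89.6%), with a median of −0.25, and the outer median was −0.21. Over all genes these medians were −0.09 and −0.10. Since only 37.6% of all genes had inner arrays 1 to 4 above array 5, most genes lay on the side of the lower calls. Array set, animal 5 and genotype cannot be told apart for genes that differed on outer arrays 1 to 4 alone.

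**Figure D2:**
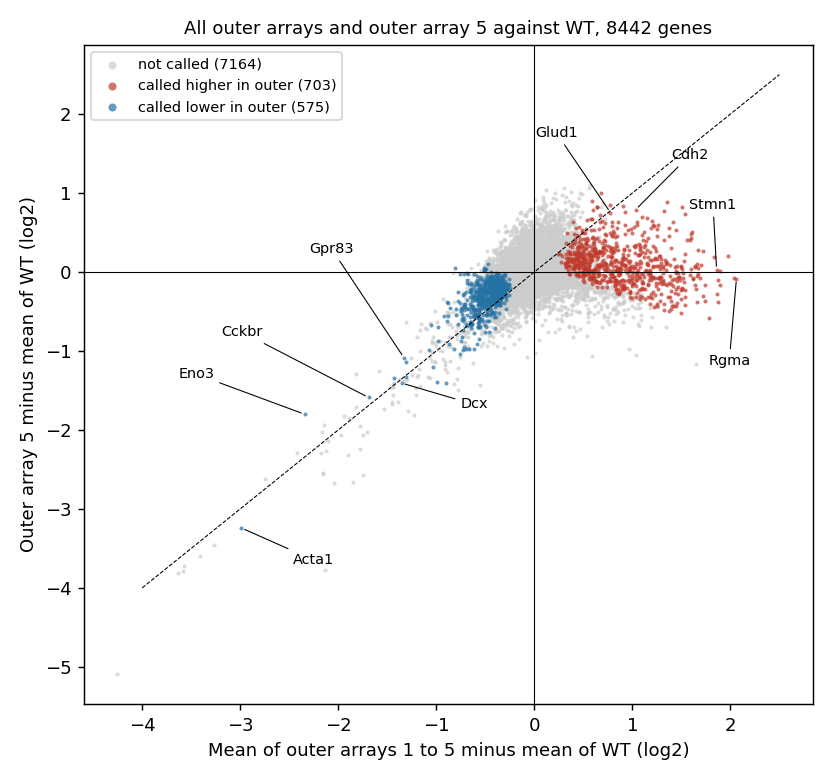
Log2 difference from the WT mean for each of 8442 genes, with the mean of outer arrays 1 to 5 on the x axis and outer array 5 alone on the y axis; the dashed line marks equal values and colours mark genes called higher (703), called lower (575) or not called. Most lower genes lie below 0 on the y axis, many nearer to 0 than the dashed line (medians −0.45 and −0.25), with Acta1, Eno3 and Cckbr farthest out, whereas most higher genes, such as Rgma and Stmn1, lie near 0 on the y axis.

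Beside Dcx and muscle transcripts, a pair of receptor genes and a Ras activator were among the 12 genes with the largest decreases. Cckbr, the cholecystokinin B receptor, Gpr83, a G protein-coupled receptor of the brain, and Rasgrp1, a calcium- and diacylglycerol-responsive exchange factor that loads Ras with GTP, were each lower on outer array 5 as well. Their promoter windows are shown because these genes moved the same way. The 300-base windows around the annotated start are RefSeq sequence of GRCm38.p6, given 5′ to 3′ on the gene's strand, at chr7:105425481-105425780 (plus strand) for Cckbr, chr9:14859960-14860259 (plus) for Gpr83 and chr2:117342828-117343127 (minus) for Rasgrp1. Capitals mark matches to the searched motifs.
Cckbr: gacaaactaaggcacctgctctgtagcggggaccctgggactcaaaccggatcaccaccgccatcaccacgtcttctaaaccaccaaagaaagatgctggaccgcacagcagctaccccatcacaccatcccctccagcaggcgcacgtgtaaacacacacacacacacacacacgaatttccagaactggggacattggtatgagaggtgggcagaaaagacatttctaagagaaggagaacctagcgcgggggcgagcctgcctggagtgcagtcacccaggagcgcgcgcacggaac
Gpr83: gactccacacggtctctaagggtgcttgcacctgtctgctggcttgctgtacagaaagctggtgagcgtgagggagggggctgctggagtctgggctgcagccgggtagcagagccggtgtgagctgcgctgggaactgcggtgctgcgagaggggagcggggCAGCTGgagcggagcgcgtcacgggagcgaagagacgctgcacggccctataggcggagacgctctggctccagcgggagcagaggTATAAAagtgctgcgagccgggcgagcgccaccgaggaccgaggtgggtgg
Rasgrp1: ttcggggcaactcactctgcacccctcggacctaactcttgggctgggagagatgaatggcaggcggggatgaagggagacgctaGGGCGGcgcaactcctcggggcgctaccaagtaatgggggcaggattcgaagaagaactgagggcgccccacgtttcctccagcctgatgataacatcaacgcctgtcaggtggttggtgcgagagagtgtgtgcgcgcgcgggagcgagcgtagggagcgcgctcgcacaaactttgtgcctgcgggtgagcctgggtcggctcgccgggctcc
Searched on both strands were the E-box letters CAGCTG and CATCTG, the GC box GGGCGG, the TATA box TATAAA and the cAMP response element TGACGTCA. Gpr83 held CAGCTG, present in 16.3% of 32851 promoters of this length, and TATAAA (13.6%). Rasgrp1 held GGGCGG (35.7%), and the Cckbr window held none of the 5. CATCTG (17.2% of promoters) and TGACGTCA (1.79%) occurred in none of these windows.

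Cckbr signals were 6.73, 5.84, 6.11, 6.18 and 6.34 on outer arrays 1 to 5, against 8.03, 7.48, 7.84, 8.05 and 8.26 on WT arrays 1 to 5. The highest outer value lay below the lowest WT value, and Cckbr was 3.23-fold lower (−1.69 ± 0.18 SE, limma adjusted p = 0.00436), with −1.59 on outer array 5 and −1.91 when only WT 4 and WT 5 stood for WT. Gpr83 was at 4.25, 5.16, 5.21, 4.96 and 5.20 on the outer arrays, against 6.43, 5.90, 6.17, 6.38 and 6.55 on the WT arrays. It was 2.51-fold lower (−1.33 ± 0.19, adjusted p = 0.0154) and again without overlap, with −1.09 on outer array 5. Rasgrp1 values were 6.44, 6.84, 7.06, 6.42 and 6.81 on the outer arrays, against 7.67, 6.92, 7.91, 8.05 and 8.38 on the WT arrays. Here WT 2 fell within the outer range, and the difference was −1.08 ± 0.24 (adjusted p = 0.0247), with −0.98 on outer array 5. Dusp6, a phosphatase that switches off ERK, was at 9.69 to 9.88 on the outer arrays and 10.04 to 10.46 on the WT arrays, a difference of −0.48 with −0.54 on outer array 5, but its other probes differed by −0.26 to 0.65. Of 9 genes tested in the list of Ras and ERK regulators Rasgrp1 and Dusp6 fell and none rose, where 6.81% of all genes fell and 8.33% rose.

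Genes of calcium sensing, ion transport and retinoid binding were also among those that fell. Vsnl1 encodes a neuronal calcium sensor and had 10.23, 10.18, 9.91, 10.06 and 10.12 on outer arrays 1 to 5, against 10.95, 10.66, 10.70, 10.77 and 10.67 on the WT arrays. Its difference, −0.65 ± 0.09 (adjusted p = 0.0149), was all but equal on outer array 5 (−0.64). Fxyd7, a brain regulator of the sodium pump, was at 4.95, 4.98, 5.13, 4.93 and 4.93 on the outer arrays, where 3 of 5 detected it, against 6.30, 5.71, 5.49, 6.10 and 5.66 on the WT arrays (−0.87 ± 0.15, adjusted p = 0.0177, and −0.92 on outer array 5). No other tested member of the FXYD and sodium pump list (7 genes) passed. Crabp1, which binds retinoic acid in the cytoplasm, had 6.63, 6.17, 6.94, 6.23 and 5.86 on the outer arrays, against 7.69, 6.78, 7.40, 7.27 and 7.22 on the WT arrays. Groups overlapped for Crabp1 through outer 3 and WT 2, the difference was −0.90 ± 0.21 (adjusted p = 0.0265), and outer array 5 had the lowest value (−1.41). In the calcium-binding and neuropeptide list 4 of 18 genes fell and 2 rose, where 6.81% and 8.33% of all genes did. Those that fell included the neuropeptide Y receptor gene Npy1r (−0.60, and −0.13 on outer array 5) and the tachykinin precursor gene Tac1 (−0.49 and −0.24). Hpcal1 (0.53, and 0.37 on outer array 5) and the calmodulin gene Calm2 (0.50 and −0.06) rose. Tacr3, the neurokinin 3 receptor gene, differed by 0.57 and did not pass (adjusted p = 0.110), with 1.10 on outer array 5.

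A pair of enzymes of the pericellular matrix were below the WT range on every outer array. Has3, a hyaluronan synthase, was at 7.04, 6.68, 6.90, 6.67 and 6.95 on outer arrays 1 to 5, against 7.91, 7.65, 7.96, 7.79 and 7.81 on the WT arrays. These ranges lay 0.98 ± 0.10 apart on the log2 scale as means, lower in the outer layer (1.97-fold, adjusted p = 0.00436), with −0.87 on outer array 5. Hs3st1, which adds 3-O-sulfate groups to heparan sulfate, had 7.25, 6.67, 6.84, 6.78 and 7.37 on the outer arrays, against 8.13, 7.92, 8.07, 7.94 and 8.11 on the WT arrays. Its difference was −1.05 ± 0.14 (adjusted p = 0.0149) and −0.67 on outer array 5, which had the highest outer value. In the list of extracellular matrix and proteoglycan genes (27 tested) Has3 alone fell, while the glypican gene Gpc2 (1.50, and 0.07 on outer array 5) and the brain proteoglycan gene Cspg5 (0.34 and 0.27) rose. Over all genes tested 6.81% fell and 8.33% rose. Cdh13, a cadherin anchored by a lipid tail, fell by 0.86 on the log2 scale (adjusted p = 0.0177), with 6.27, 6.51, 6.24, 6.60 and 6.91 on the outer arrays and 7.72, 7.36, 7.22, 7.35 and 7.20 on the WT arrays. The receptor of the cytokine TWEAK, Tnfrsf12a, was at 4.77 to 5.08 on the outer arrays, 3 of which detected it, and 5.41 to 6.50 on the WT arrays (−1.03 ± 0.17, and −1.20 on outer array 5). Pglyrp1, an antibacterial protein gene of neutrophil granules, differed by −0.997 ± 0.283, with −1.39 on outer array 5, and was detected on 1 outer array, outer 1, and on all 5 WT arrays, and the 2 of 8 neutrophil markers detected averaged 4.27 to 5.24 on the outer arrays and were highest on WT 1 and WT 3 (6.86 and 6.04). The part of these cells in the Pglyrp1 result was not tested.

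Of the immediate early genes, which neuronal activity induces, Arc and Junb passed and were lower. Arc, which regulates AMPA receptor uptake at synapses, had 4.79, 4.88, 5.31, 4.52 and 4.53 on outer arrays 1 to 5, with 1 array above detection, against 5.46, 5.25, 5.45, 5.97 and 5.70 on the WT arrays (−0.76 ± 0.17, adjusted p = 0.0256, and −1.04 on outer array 5). Junb, a subunit of the AP-1 transcription factor, fell by 0.72 on the log2 scale (adjusted p = 0.0267), with −0.28 on outer array 5. These were 2 of the 6 immediate early genes tested, where 6.81% of all genes fell, and the median of the 6 was −0.23, with −0.18 on outer array 5. A further 8 of the 14 genes listed, Fos and Npas4 among them, did not pass the detection filter. Chosen after their values were seen, the neurotrophin gene Bdnf and the neurosecretory gene Vgf were lower as well. Bdnf was at 8.69, 8.61, 8.68, 8.77 and 8.61 on the outer arrays, against 8.84, 9.06, 9.34, 9.34 and 9.45 on the WT arrays (−0.53 ± 0.12, adjusted p = 0.0247, and −0.59 on outer array 5). Vgf was at 8.60, 8.57, 8.44, 8.71 and 8.67 on the outer arrays, against 9.02, 9.20, 9.13, 9.34 and 9.29 on the WT arrays (−0.60 ± 0.09, adjusted p = 0.0155, and −0.53 on outer array 5). Neither gene's groups overlapped. Also picked by eye were the orexin receptor gene Hcrtr1 (−0.75, and −0.87 on outer array 5), the proline transporter gene Slc6a7 (−0.73 and −0.57) and the neurotrophic factor gene Gdnf, which no outer array detected and 4 WT arrays did, and which was at least 1.20-fold lower in the outer layer (adjusted p = 0.0246), with outer array 5 below all WT values.

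**Figure D3:**
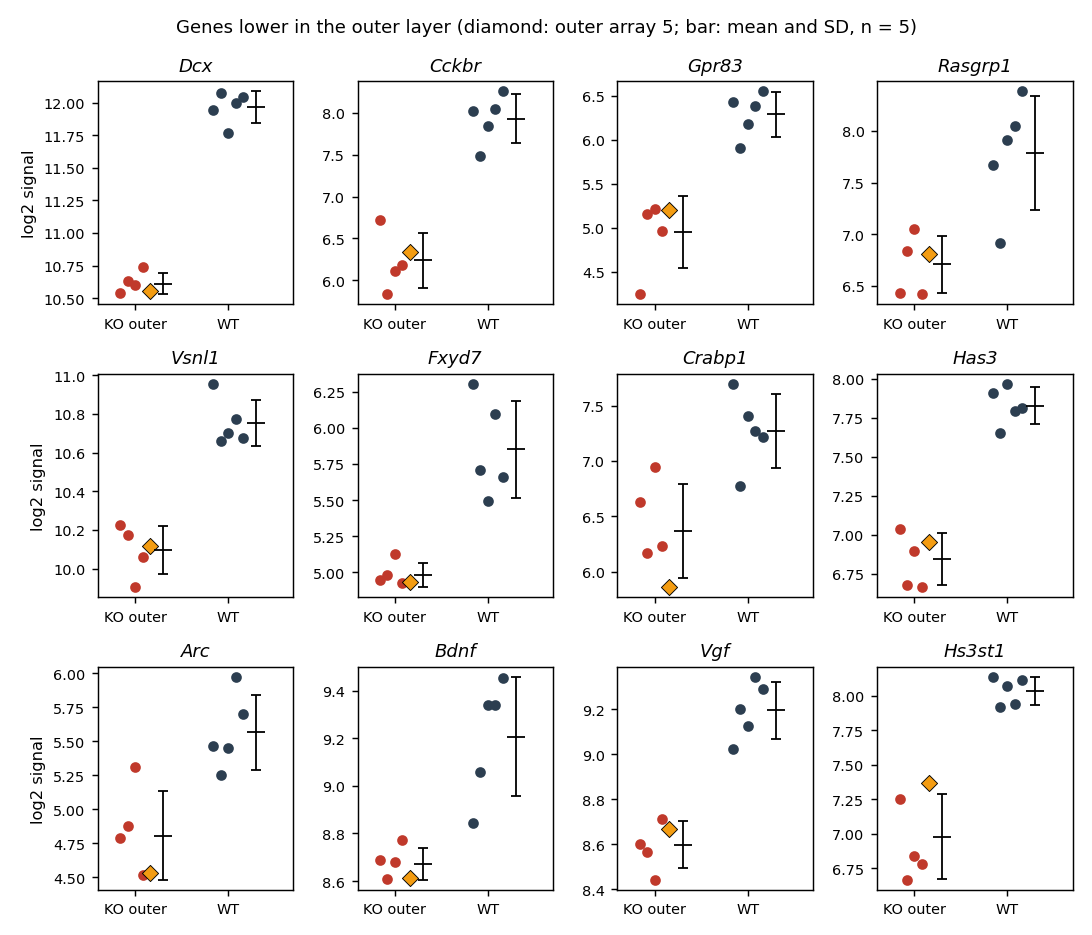
Log2 signal of 12 genes lower in the outer layer, with each outer array at the left (outer array 5 as a diamond) and each WT array at the right of a panel, and the mean with SD (n = 5) beside the points; y axes differ between panels and do not start at 0. Outer array 5 lies with the other outer arrays below the WT points for Dcx, Cckbr, Gpr83, Vsnl1, Has3, Bdnf and Vgf, while Rasgrp1, Crabp1 and Arc overlap WT through other arrays.

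Muscle-related transcripts were among the genes with the largest decreases, and these moved with WT 1, WT 2 and WT 3. Acta1, skeletal muscle actin, had 6.80, 6.99, 7.07, 7.13 and 6.68 on outer arrays 1 to 5, against 12.28, 11.64, 10.85, 7.21 and 7.64 on WT arrays 1 to 5. Its difference of −2.99 ± 0.89 (adjusted p = 0.0451) was −0.49 against WT 4 and WT 5. Muscle enolase Eno3 differed by −2.34, the embryonic myosin light chain gene Myl4 by −1.43, the slow troponin gene Tnnt1 by −1.31 and the respiratory subunit gene Cox7a1, of heart and muscle, by −1.30. On outer array 5 these were −1.80, −1.35, −1.32 and −1.13, and over all outer arrays against WT 4 and WT 5 they were −0.75, −0.52, −0.58 and −0.50. Over the 9 muscle markers tested, only Acta1 passed, the median difference was −3.41, and it was −0.26 against WT 4 and WT 5. By the same comparison Cckbr, Gpr83, Rasgrp1 and Has3 were at −1.91, −1.51, −1.51 and −0.96.

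The genes with the largest increases were high on outer arrays 1 to 4 and near the WT level on outer array 5, where most lay within the WT range, Lrrn2 and Bcas2 below it and Ankrd46 above it. Rgma, a ligand of neogenin that repels axons, had 9.36, 9.39, 9.28, 9.29 and 6.65 on outer arrays 1 to 5, against 6.41, 6.36, 6.85, 6.94 and 7.11 on the WT arrays. It rose 4.18-fold (2.06 ± 0.48, adjusted p = 0.0256), with −0.08 on outer array 5. Stmn1, the microtubule-destabilizing stathmin, had 10.64, 10.43, 10.37, 10.91 and 8.30 on the outer arrays, against 8.41, 8.34, 7.97, 8.34 and 8.29 on the WT arrays (1.86 ± 0.41, adjusted p = 0.0246, and 0.03 on outer array 5). Vps26b of the retromer complex (2.04), the arginine methyltransferase gene Prmt8 (1.98), Zc3h15 (1.89), the membrane contact protein gene Vapa (1.89), the spliceosome gene Bcas2 (1.88) and the prothymosin gene Ptma (1.87) had differences of −0.38 to 0.21 on outer array 5. Abhd17c (1.87), Ankrd46 (1.83), Lrrn2 (1.78) and the nuclear import gene Kpnb1 (1.74) had −0.59 to 0.19 there. Among these 12 genes Ankrd46 alone had all outer values above all WT values. In the inner layer Rgma was 2.46 and Vps26b 2.13 higher on arrays 1 to 4 than on array 5, and among the outer arrays these gaps were 2.68 and 2.65.

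A smaller group was chosen from the higher genes because outer array 5 lay above all WT arrays, so its place there was set by the choice. Cdh2, the N-cadherin of neuronal adhesion and migration, had 6.73, 7.30, 6.98, 7.58 and 6.84 on outer arrays 1 to 5, against 5.73, 6.31, 6.42, 5.77 and 6.04 on the WT arrays. It rose 2.05-fold without overlap (1.03 ± 0.19, adjusted p = 0.0197), its other probe by 1.05, and outer array 5 was at 0.79. Glud1, the mitochondrial glutamate dehydrogenase, had 8.09, 8.66, 8.95, 8.70 and 8.57 on the outer arrays, against 7.56, 7.77, 7.96, 7.61 and 8.18 on the WT arrays, overlapping through outer 1 and WT 5 (0.78 ± 0.17, and 0.75 on outer array 5). Smc6, of the DNA repair complex related to condensin, rose by 1.35 with 0.88 on outer array 5, Dcun1d1, which promotes cullin neddylation and was detected on 1 WT array, by 1.53 with 0.73, and the transporter gene Slc35f1 by 1.32 with 0.78, each without overlap. Sema3c, a secreted semaphorin that guides axons and migrating cells, was at 5.88, 5.61, 5.30, 5.69 and 5.05 on the outer arrays, 4 of which detected it, against 4.29, 4.29, 4.23, 4.42 and 4.58 on the WT arrays, none of which did. Sema3c was at least 1.40-fold higher. The tRNA methyltransferase gene Alkbh8, the metalloproteinase inhibitor gene Timp4 and the signal recognition particle receptor gene Srpr were likewise detected on all 5 outer and no WT arrays, and were at least 2.06-fold, 1.37-fold and 1.38-fold higher. These 4 genes passed the detection filter through KO arrays alone, so their calls are given as a description. The same holds for Notch1, Sparcl1, Pcdh7, Tjp1 and Jam2, which are named and counted in their lists below. Zfp280c (0.93, and 0.76 on outer array 5, detected on 1 WT array) and Rmdn2 (0.67 and 0.72) completed the group with Rnf138 (0.90 and 0.84), whose other probes differed by −0.21 to −0.04. Arrays 1 to 4 exceeded array 5 in the inner and the outer layer by 1.23 and 1.00 for Dcun1d1 and 1.05 and 0.85 for Alkbh8. These gaps were 0.83 and 0.59 for Smc6, 0.71 and 0.68 for Slc35f1 and 0.71 and 0.30 for Cdh2. Timp4, Srpr and Rmdn2 were instead higher on outer array 5 than on the mean of outer arrays 1 to 4.

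**Figure D4:**
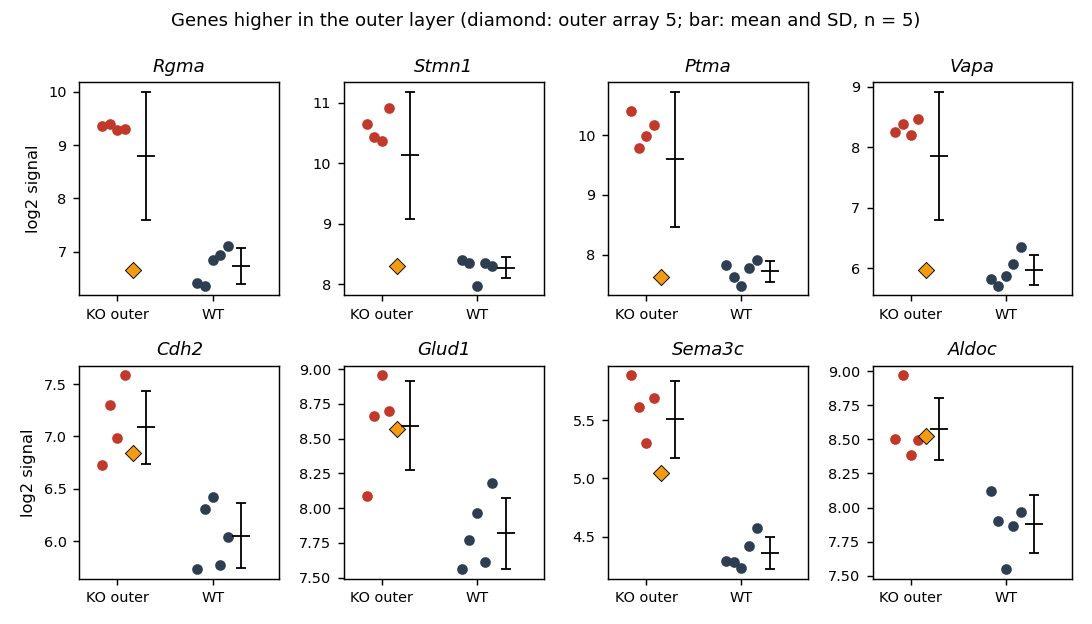
Log2 signal of 8 genes higher in the outer layer, with each outer array at the left (outer array 5 as a diamond) and each WT array at the right of a panel, and the mean with SD (n = 5) beside the points; y axes differ between panels and do not start at 0. In the upper row, outer array 5 lies among the WT points (Rgma at 6.65), and in the lower row it lies above them (Cdh2 at 6.84).

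Cell type markers beyond CA3 gave mixed counts. Of 11 GABAergic interneuron genes 4 rose and none fell, where 8.33% of all genes rose and 6.81% fell, namely the transcription factor genes Maf (0.92, and 0.48 on outer array 5, detected on 1 WT array) and Dlx2 (0.72 and 0.24), the GABA-synthesizing enzyme gene Gad1 (0.70 and 0.30) and the somatostatin gene Sst (0.69 and 0.09). Under the authors' own scores Dlx2 was level with WT. Radial glia genes rose in 3 of 11, with the receptor gene Notch1 (below detection on the WT arrays, at least 1.19-fold higher, with outer array 5 within the WT range), Sox9 (0.69, and 0.37 on outer array 5, within the WT range, detected on 3 outer arrays and 1 WT array) and the intermediate filament gene Nes (0.49, and 0.54 on outer array 5), whose other probe differed by −0.12. Median differences of these lists were 0.22 and 0.21, and 0.20 and 0.26 on outer array 5, against −0.08 and −0.01 over all genes. Pyramidal neuron genes were divided. Neurod2 (0.83, and 0.32 on outer array 5), a neurogenic transcription factor, and the pentraxin gene Nptx1 (0.78 and 0.49) rose, whereas the vesicular glutamate transporter gene Slc17a7 (−0.56 and −0.31) and the kinase gene Camk2a (−0.54 and −0.45) fell, 4 of 13 in all. Another Camk2a probe differed by −0.19. Among 10 intermediate progenitor and newborn neuron genes Neurod1 alone passed, at 6.85, 7.22, 6.96, 7.51 and 5.67 on outer arrays 1 to 5, against 5.22, 5.67, 5.23, 4.71 and 5.39 on the WT arrays (1.60 ± 0.30, and 0.43 on outer array 5). Insm1 (0.22), Rnd2 (0.38) and Igfbpl1 (0.03) of that list did not pass (adjusted p of 0.149, 0.0873 and 0.824).

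Glial lists moved in both directions, as did all genes tested (8.33% higher and 6.81% lower). Olig1, of the oligodendrocyte lineage, had 9.81, 9.58, 9.64, 9.59 and 8.88 on outer arrays 1 to 5, against 8.32, 8.17, 8.10, 8.20 and 8.64 on the WT arrays, a rise of 1.21 ± 0.17 (adjusted p = 0.0149) with 0.60 on outer array 5. Cnp, a myelin enzyme gene, fell by 0.64 (−0.43 on outer array 5), and Cspg4, the NG2 proteoglycan of oligodendrocyte precursors, differed by −0.76 with −0.02 on outer array 5, so 1 rose and 2 fell of 9. The astrocyte glycolytic gene Aldoc rose at 8.50, 8.97, 8.39, 8.49 and 8.53 on the outer arrays, against 8.12, 7.90, 7.55, 7.86 and 7.97 on the WT arrays (0.69 ± 0.13, and 0.64 on outer array 5). Clu, which encodes the secreted chaperone clusterin, fell by 0.52 (−0.41 on outer array 5), and Sparcl1, which no WT array detected, was raised at least 1.52-fold over all outer arrays although outer array 5 was 0.21 below WT. Of the 8 astrocyte genes tested no others passed, and Gfap and Aqp4 were not detected. Subplate and early-born neuron genes fell in 1 of 7, Fezf2 (−0.41, and −0.19 on outer array 5), a determinant of deep-layer projection neurons. None passed among the endothelial and mural (13), microglia (5), meningeal (8), red blood cell (4), CA1 and CA2 (5), choroid plexus (2), dentate granule (1), bone and cartilage (6), neutrophil (2), keratinocyte (1) and Cajal-Retzius (1) genes tested. Meningeal genes averaged 5.32 to 6.99 on the outer arrays and 5.43 to 9.16 on the WT arrays. Reln, the secreted migration signal and the sole Cajal-Retzius marker detected of 8, differed by −0.34 (adjusted p = 0.102), and Calb2 by 0.07 (adjusted p = 0.804).

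Most cytoskeletal genes, the setting in which doublecortin acts, did not pass. Of 19 tubulin, microtubule-associated protein and stathmin genes 3 rose and 1 fell, with a median of 0.01. Over all genes tested 8.33% rose and 6.81% fell. Besides Stmn1, the microtubule-associated protein gene Map1b was higher at 12.75, 12.47, 12.63, 12.62 and 12.05 on outer arrays 1 to 5, against 11.65, 11.78, 11.95, 11.71 and 11.77 on the WT arrays (0.73 ± 0.13, and 0.27 on outer array 5), and its other probes differed by 0.12 to 0.23. Tuba1a, the main tubulin of young neurons, rose by 0.39 with 0.15 on outer array 5, and was 0.01 array SD lower by the authors' scores. Tubb2a fell to 5.12, 5.12, 4.99, 5.10 and 5.00 on the outer arrays, against 5.18, 5.65, 5.60, 5.78 and 5.51 on the WT arrays (−0.48 ± 0.11, and −0.55 on outer array 5). Of 22 motor genes Kif2a, a microtubule depolymerase, rose by 0.61 (0.28 on outer array 5) and the dynein light chain gene Dynlt3 by 1.54 (−0.22). In the reelin and migration list 3 of 16 rose, Cdh2, Rnd3 (1.17, and −0.01 on outer array 5) and Cdk5r1, the activator of Cdk5 (0.45 and 0.08).

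Guidance and adhesion genes changed in both directions, as did all genes tested (8.33% higher and 6.81% lower). Of 16 semaphorin, plexin and neuropilin genes Sema3c and Sema6d (0.44, and 0.27 on outer array 5) rose, and Sema4a (−0.54 and −0.22) and Sema3f (−0.38 and −0.37), a repellent of hippocampal axons, fell. Another Sema6d probe differed by −0.10. Among 19 ephrin, netrin, slit and related genes Rgma and its relative Rgmb rose, and the ephrin gene Efnb1 (−0.43, and −0.50 on outer array 5), the netrin receptor gene Unc5c (−0.41 and −0.21) and Ephb6 (−0.45 and −0.06) fell. Rgmb, unlike Rgma, was high on every outer array, at 6.78, 6.94, 7.12, 7.31 and 6.98, against 6.10, 6.27, 6.64, 6.56 and 6.65 on the WT arrays (0.58 ± 0.14, and 0.53 on outer array 5). Its other probe differed by 0.28. Cadherin family genes (15 tested) gave Cdh2, Cdh13 and the protocadherin gene Pcdh7 (below detection on the WT arrays, at least 1.02-fold higher, with 4.82 on outer array 5 against 4.38 to 4.80 on the WT arrays). Of the Wnt pathway (22 genes) β-catenin, Ctnnb1, rose by 1.16 with 0.19 on outer array 5, the Dickkopf family gene Dkk3 by 0.81 with 0.49, and the ligand gene Wnt7b fell by 0.65 with −0.23, at 7.70, 7.75, 7.64, 7.56 and 8.18 on outer arrays 1 to 5, against 8.43, 8.41, 8.24, 8.40 and 8.58 on the WT arrays. Another Wnt7b probe differed by −0.10.

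Genes of the housekeeping lists that rose were higher mainly on outer arrays 1 to 4. Oxidative phosphorylation genes rose in 9 of 34 with none lower, led by the ATP synthase gene Atp5a1 (1.66), Uqcrb of complex III (1.65) and Ndufb9 of complex I (1.55), which were at −0.05, −0.21 and 0.41 on outer array 5. The list's median was −0.01, with −0.06 on outer array 5. Against 8.33% of all genes, mitochondrial ribosome and import genes rose in 4 of 24, among them the import receptor gene Tomm70a (1.72), Mrps15 (1.34) and Mrpl20 (1.16), at 0.27, 0.13 and −0.02 on outer array 5. Of 24 chaperone and unfolded protein response genes, 7 rose and 2 fell, against 8.33% and 6.81% of all genes. The mitochondrial chaperonin genes Hspe1 and Hspd1 and the J-protein gene Dnajb9 led with 1.38, 1.19 and 1.27, and were at −0.50, −0.05 and −0.14 on outer array 5, while Ddit3, a stress-induced transcription factor gene, fell by 0.58 (−0.34 on outer array 5; its other probe was at 0.10) and Dnajc3 by 0.58 (−0.05). Another Hspd1 probe differed by 0.39. The chaperone list mean was 8.98 to 9.11 on outer arrays 1 to 4 and 8.48 on outer array 5, against 8.54 to 8.71 on the WT arrays. Cytosolic ribosomal protein genes gave 3 of 24 higher, a share near that of all genes (8.33%), Rpl5 (0.78), Rps3 (0.39) and Rps27 (0.31), with 0.11, 0.18 and 0.10 on outer array 5, and Rps3 and Rps27 were at or below WT by the authors' scores.

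**Figure D5:**
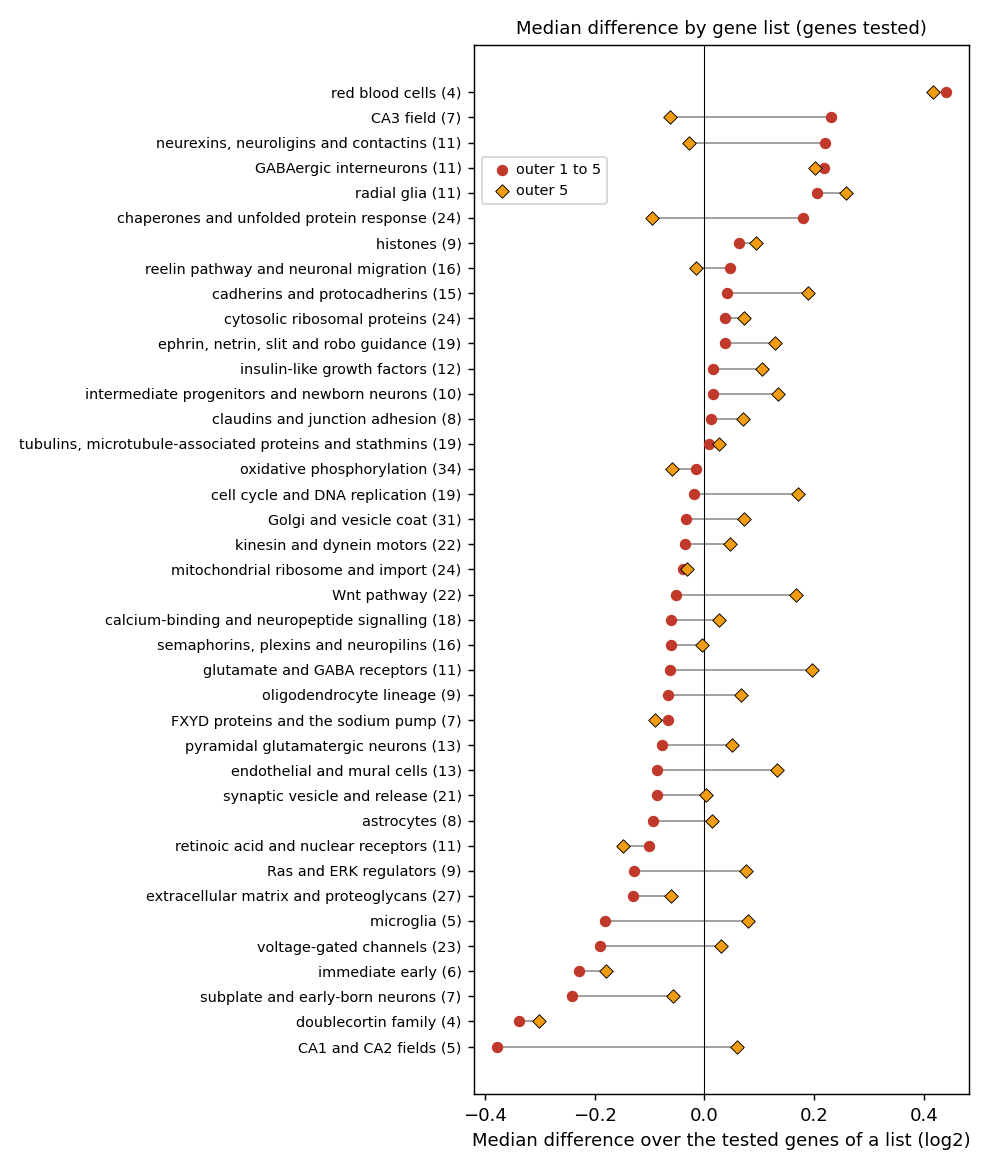
Median log2 difference from WT over the tested genes of 39 lists, the number tested in brackets, for outer arrays 1 to 5 (circle) and for outer array 5 alone (diamond); lists of muscle, bone and meningeal genes and lists with under 4 genes tested are not drawn. Red blood cell, GABAergic and radial glia lists lie above 0 by both measures (0.44 and 0.42, 0.22 and 0.20, 0.21 and 0.26), the doublecortin family lies below it by both, and many others, among them the CA3, neurexin and chaperone medians, change sign on outer array 5.

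Synaptic vesicle, receptor and cell cycle lists held no calls, where 8.33% of all genes rose and 6.81% fell. None of 21 synaptic vesicle and release genes, 11 glutamate and GABA receptor genes or 19 cell cycle genes passed, with medians of −0.09, −0.06 and −0.02. Of 23 voltage-gated and related channel genes Kcnk2, a leak potassium channel, rose by 0.78 (0.26 on outer array 5) and Kcnj3, an inward rectifier, fell by 0.60 (−0.25). In the neurexin, neuroligin and contactin list (11) Cntnap2 rose by 0.86 (0.05). Nr2f1, an orphan nuclear receptor that patterns the cortex, rose by 1.18 with 0.25 on outer array 5, and Crabp1 was the other of 11 retinoid and nuclear receptor genes to pass. Igfbp7 rose by 1.02 (0.33 on outer array 5) and Igf2r fell by 0.46 (−0.13) among 12 insulin-like growth factor genes. Golgi and vesicle coat genes gave 3 higher, Gosr1 (0.74 and 0.47), Sec23b (0.42 and 0.10) and Gorasp2 (0.41 and 0.09), and 1 lower, Cope (−0.40 and −0.26), of 31. Other Gorasp2 probes differed by 0.14 to 0.75 and other Cope probes by −0.20 to −0.14. The histone gene H3f3b (0.73 and 0.12), of 9, and the junction gene Tjp1 (no WT array detected it, at least 1.10-fold higher, with outer array 5 within the WT range), of 8, rose. Jam2, of the same list, passed the test, but 1 outer array and no WT array detected it and no fold could be bounded, and the claudin gene Cldn3 differed by −0.05 (adjusted p = 0.771).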

How the data were processed

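CA3 tissue was microdissected from newborn brains, and the biotin-labelled, amplified RNA of each brain was run on an Illumina bead array, per the labels' protocols. The deposited log2 signals were used for the tests. Their 2 deposited copies were equal at 7 decimals, and the submitters' processing notes name limma without a version or role. A further table that the authors deposited holds a score per entry. Tested on the values, it was the log2 signal minus the array's median, divided by the array's SD, with an added shift per entry on the 8 arrays of KO animals 1 to 4. Labels name no batch. Bead summary, background correction and annotation are not given in the sources used here.

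The 15 arrays were taken from the log2 scale to signals, corrected with neqc on 1114 entries without a probe, used as negative controls (10 brighter ones were set aside), and quantile normalized with an offset of 16. A probe was kept when its detection p (the fraction of negative controls that reached it) was under 0.01 on at least 5 arrays, which left 12077 probes (47.0%). Of all probes 23978 carried 1 symbol, 1719 none and 0 several, and 707 kept probes were unnamed. A gene was its kept probe of highest mean, giving 8442 genes, of which 2163 had several kept probes. Groups were compared without pairing by limma 3.58.1 in R 4.3.3 (lmFit and eBayes). Tests were two-sided, p-values were adjusted by the Benjamini-Hochberg method across the kept probes, and the threshold was 0.05. The procedure was tested on simulated data with independent noise on each array. These held no array-set shift, so that test does not cover the array sets of this comparison. Where no array of a group detected a gene, the fold is a lower bound against the detection level. The number of arrays limits the precision, and p-values measure the spread between the arrays within a group. In the outer group that spread includes the gap between its arrays with and without the shift, so it is not the spread between animals alone.

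The members and gene lists were chosen with earlier results of these data known. Named genes were Dcx, the 12 largest called differences in each direction, the 12 called genes in each direction that were largest by the smaller of the difference over all outer arrays and that of outer array 5 (outside the WT range), genes called with the array set as a term, and up to 3 called members per list and direction, with members needed to describe a list. Bdnf, Vgf, Hcrtr1, Slc6a7 and Gdnf were chosen after their values were seen. Alternatives covered background correction, normalization, detection, array set, replicate block, array weights, probe choice and left-out arrays. Promoter sequence came from RefSeq.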

Additional observations from a re-analysis of the deposited data

Results flagged for a closer look

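Among 272 sets of 5 arrays (136 named genes, each in the outer and the WT group), 43 held an array whose gap to the nearest of the others exceeded 0.71 of the range; chance gives about 5%. Outer array 5 was the low one for 30 of these genes, all but Olig1, Dcun1d1, Tomm70a and Ankrd46 within the WT range or below it. Its log2 signal was 6.65 for Rgma, 4.90 for Vps26b, 5.61 for Prmt8, 6.83 for Zc3h15, 5.97 for Vapa, 6.20 for Bcas2, 7.62 for Ptma and 6.39 for Abhd17c. It was 8.30 for Stmn1, 7.88 for Ankrd46, 5.41 for Lrrn2, 6.26 for Kpnb1, 5.39 for Dcun1d1, 6.47 for Atp5a1, 7.17 for Uqcrb and 5.96 for Tomm70a. It was 6.81 for Hspe1, 9.65 for Hspd1, 8.88 for Olig1, 4.33 for Sparcl1, 10.50 for Ctnnb1, 4.72 for Rnd3, 12.93 for Cdk5r1 and 6.25 for Dnajb9. It was 7.79 for Mrpl20, 5.41 for Gpc2, 10.60 for Nr2f1, 6.98 for Dynlt3, 7.31 for Igfbp7 and 11.50 for Rpl5.

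Other arrays stood apart for single genes. Outer array 5 was high for Cspg4 (5.87, against 4.90 to 5.02 on the other outer arrays). Outer array 1 was low for Gpr83 (4.25) and high for Pglyrp1 (5.68), outer array 2 was high for Aldoc (8.97) and low for Insm1 (9.15), and outer array 3 was high for Fxyd7 (5.13). Among WT arrays, WT 5 was low for Dnajc3 (7.18) and high for Sox9 (5.07), Ctnnb1 (10.69) and Tjp1 (5.03). WT 3 was low for Stmn1 (7.97), WT 4 for Mrps15 (5.17) and WT 1 for Cntnap2 (6.36).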

How the results depend on the processing

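Direction was kept by Dcx, Cckbr and Has3 under every alternative run, and Dcx lost its call only on the arrays without the shift (−1.41, adjusted p = 0.272), where 0 genes were higher, 0 lower and 0 called (603 at an unadjusted p under 0.05). Main counts were 703 higher, 575 lower and 1278 called. With the array set as a term these were 0, 1 and 1, and likewise 0, 1 and 1 in the fit of 15 arrays with array set and animal. Without WT 1, WT 2 and WT 3 they were 0, 1 and 1 (1395 unadjusted), and 0, 2 and 2 when outer 1 was left out too, a choice made after seeing the data. No filter on detection gave 337, 311 and 648, and array weights 1376, 1768 and 3144. Median scaling gave 505, 35 and 540, the deposited signals with no further step 391, 14 and 405, and the authors' scores 277, 110 and 387. The median over all genes was −0.08 in the main fit, 0.06 after median scaling and 0.14 with the deposited signals. Leaving out 1 array at a time gave 0 to 1288 higher, 3 to 1357 lower and 3 to 2645 called genes, and a Dcx difference of −1.40 to −1.33. Same-numbered outer and WT arrays, from different animals, correlated with r of 0.168, −0.0975, −0.127, 0.0784 and −0.206 in their deviations, so the numbers do not pair the samples, and the replicate block gave 1 higher, 3 lower and 4 called. The cause of these changes was not tested.

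Some named genes turned direction. With the array set as a term, and equally on the arrays without the shift, differences were Lrrn2 −0.59, Hspe1 −0.50, Bcas2 −0.38, Abhd17c −0.28, Dynlt3 −0.22, Uqcrb −0.21, Sparcl1 −0.21, Zc3h15 −0.16, Kpnb1 −0.16, Dnajb9 −0.14, Ptma −0.10, Rgma −0.083, Vps26b −0.076, Calm2 −0.059, Hspd1 −0.055, Atp5a1 −0.052, Mrpl20 −0.019 and Rnd3 −0.011. In the fit of 15 arrays with array set and animal they were Hspe1 −0.48, Lrrn2 −0.40, Dynlt3 −0.21, Vapa −0.15, Abhd17c −0.14, Zc3h15 −0.14, Uqcrb −0.11, Dnajb9 −0.11, Bcas2 −0.086, Dlx2 −0.065 and Mrpl20 −0.022. With the authors' scores, in array SDs, they were Rps27 −0.11, Tuba1a −0.012, Dlx2 −0.0065 and Rps3 −0.00070.

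Signal near background limits Gpr83, Fxyd7, Tnfrsf12a, Arc, Tubb2a and the genes detected in 1 group.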
